A study of Mus musculus with 2 samples.

Results

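The 10 genes described here are the transcription factors and cofactors that gather around Scl, the product of Tal1, in blood stem cells. The 7 genes of the stem cell heptad are Tal1, Lyl1, Lmo2, Gata2, Runx1, Erg and Fli1, and the other 3 are the cofactor genes Ldb1, Cbfa2t3 and Cbfb. They were chosen by gene symbol, and all 10 were found among the 34745 genes of the deposited tables. RNA of LSKs (Lin-Sca1+c-Kit+ cells) sorted from mouse bone marrow (BM) gave 1 library for each of week-0 and week-3, and each library mixed the cells of 3 mice. Mice of both groups were C57BL/6 and carried both parts of the Scl/tTA-BCR/ABL (BA) transgene, in which a regulatory element of the Scl gene drives the tetracycline transactivator tTA, and tTA in turn drives BA unless doxycycline is present. The week-0 mice were still kept on doxycycline, and the week-3 mice had been without it for 3 weeks. The element limits BA to the cells in which it is active, and how many LSKs of a library expressed BA cannot be read from these bulk tables. With 1 library per time point the spread between mice is unknown, and no test of the conditions was possible.

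Scl and Lyl1 are closely related basic helix-loop-helix proteins that pair with E proteins on DNA. Lmo2 does not touch DNA itself and links such pairs to GATA factors through the dimerizing adaptor Ldb1, while Runx1, Erg and Fli1 often bind the same enhancers in blood stem cells. Cbfb is the partner that strengthens DNA binding by Runx factors, and Cbfa2t3 (Eto2) is a corepressor that joins the Scl complex. The group is known for holding stem and progenitor cells in their state, and its members control one another through shared enhancers.

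The sequences just upstream of the start sites were read first, because these genes are known to be bound by their own products. RefSeq promoters of GRCm38.p6 were matched for 8 of the 10 genes, with 16 start sites in all, and were not matched for Lmo2 and Fli1. Each window holds the 250 bases before a start site, 5′ to 3′ on the strand of the gene. The windows of the genes that were higher at week-3 (Lyl1, Tal1 and Cbfa2t3) and of Erg, which fell most, are shown, with start site 1 of Tal1 and of Cbfa2t3 and start sites 1 and 3 of Erg. Capitals mark matches to GATAA (GATA factors), CANNTG (the E-box of Scl and Lyl1 with E proteins), GGAAG (ETS factors such as Erg and Fli1) or TGTGGT (Runx1), on either strand, so that GATAA can read TTATC and GGAAG can read CTTCC.
Lyl1, chr8:84701207-84701456, plus strand: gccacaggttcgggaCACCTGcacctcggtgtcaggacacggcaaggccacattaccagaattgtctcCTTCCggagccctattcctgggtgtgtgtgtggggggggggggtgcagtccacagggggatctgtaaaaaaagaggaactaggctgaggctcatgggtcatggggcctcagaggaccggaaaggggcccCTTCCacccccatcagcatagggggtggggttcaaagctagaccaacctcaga
Tal1, chr4:115056176-115056425, plus strand: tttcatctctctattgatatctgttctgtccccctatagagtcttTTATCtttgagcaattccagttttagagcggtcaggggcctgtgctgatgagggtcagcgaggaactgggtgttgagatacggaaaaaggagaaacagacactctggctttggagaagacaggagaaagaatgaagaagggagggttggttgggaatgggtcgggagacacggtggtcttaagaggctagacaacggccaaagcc
Cbfa2t3, chr8:122699110-122699359, minus strand: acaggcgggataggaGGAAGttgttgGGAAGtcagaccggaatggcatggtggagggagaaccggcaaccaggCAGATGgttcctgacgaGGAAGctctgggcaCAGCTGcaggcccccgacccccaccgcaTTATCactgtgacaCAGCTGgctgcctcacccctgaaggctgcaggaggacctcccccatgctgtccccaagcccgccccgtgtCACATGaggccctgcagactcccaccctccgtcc
Erg start site 1, chr16:95586594-95586843, minus strand: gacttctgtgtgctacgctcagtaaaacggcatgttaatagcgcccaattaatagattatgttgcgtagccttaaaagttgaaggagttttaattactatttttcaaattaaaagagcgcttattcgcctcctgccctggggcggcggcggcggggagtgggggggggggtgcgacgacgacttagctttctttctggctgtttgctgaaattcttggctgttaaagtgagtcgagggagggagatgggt
Erg start site 3, chr16:95459349-95459598, minus strand: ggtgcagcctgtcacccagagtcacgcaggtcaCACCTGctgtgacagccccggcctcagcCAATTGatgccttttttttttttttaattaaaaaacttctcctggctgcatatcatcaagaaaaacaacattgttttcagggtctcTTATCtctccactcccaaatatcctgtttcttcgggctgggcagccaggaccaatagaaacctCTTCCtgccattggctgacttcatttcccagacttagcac
The window of Lyl1 held 1 E-box and 2 GGAAG matches. That of Cbfa2t3 held the most matches of the 16 windows, with 4 E-boxes, 3 GGAAG and 1 GATAA. The window at start site 1 of Erg held none of these motifs, whereas that at start site 3 held 2 E-boxes, 1 GATAA and 1 GGAAG. Over the 16 windows, GATAA was found in 4, against 22.6% of all 32851 promoter windows of the same length, CANNTG in 6 (66.2% of all), GGAAG in 9 (64.1% of all) and TGTGGT in 0 (14.0% of all). No motif matches overlapped each other in these windows. A match describes the letters only and is no evidence of binding, and the counts per gene do not tell which start site the reads came from.

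The libraries held 6356164 (week-0) and 3886695 (week-3) reads on genes. Reads of the 10 genes ran from 131 to 1658 in the earlier library and from 110 to 1161 in the later one, so all 10 passed the limit of 10 reads over both. Levels are given as deposited FPKM, which scales reads by gene length and by library size, or for sums as CPM (reads per 1000000 reads on genes). Changes are log2 ratios of week-3 to week-0 FPKM, and their intervals at 95% come from the reads alone. The cDNA was amplified, so reads do not each stand for a separate molecule, and the intervals cover counting error only. In bulk RNA, fewer cells that express a gene cannot be told apart from less RNA of that gene per cell.

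The 10 genes did not move as one. At week-3, Lyl1, Cbfa2t3 and Tal1 were higher, Lmo2, Gata2, Runx1, Ldb1 and Erg were lower, and Fli1 and Cbfb were close to their week-0 levels. Only Erg passed 2-fold, in the downward direction, which is 1 of the 10 genes, where 17.9% of the 13689 genes with at least 10 reads were lower by 2-fold. None of the 10 was 2-fold higher, against 11.9% of all genes tested, and 29.9% of all passed 2-fold in either direction. At 1.5-fold, again only Erg passed with the deposited scaling, while 24.6% of all genes tested were higher, 26.8% lower and 51.3% either. With TMM or median-of-ratios scaling Gata2, Runx1 and Ldb1 passed 1.5-fold too, which makes 4 of the 10 lower, beside 29.9% (TMM) and 29.3% (median of ratios) of all genes tested. Among the 8832 genes with at least 100 reads, to which the 10 belong, 11.4% were 2-fold lower, 7.51% higher and 18.9% either. Counting intervals left out no change for 8 of the 10 genes, 3 above and 5 below. Of all genes tested, 31.7% lay above, 27.3% below and 59.0% either, and of those with at least 100 reads 39.3%, 29.8% and 69.1%. With TMM or median-of-ratios scaling, which shift every log2 change by -0.11 and -0.09, the split of the 10 was 2 above and 6 below. The median log2 change of the 10 genes was -0.19, and that of all genes tested was 0.05. Together the 10 genes took 1346 CPM at week-0 and 1247 CPM in the later library, a log2 change of -0.11 (interval -0.16 to -0.06). In the deposited pathway annotation, 6 of the 10 (Lyl1, Lmo2, Runx1, Erg, Fli1 and Ldb1) carry the KEGG term for transcriptional misregulation in cancer. The share of all genes with this term was not computed, so the count only describes how the 10 are annotated.

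**Figure D1:**
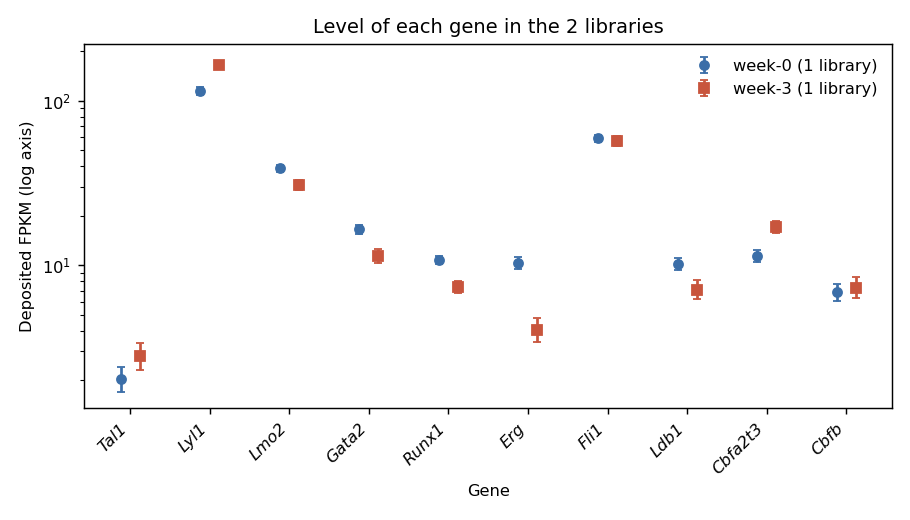
Deposited FPKM (log axis) of the 10 genes in the week-0 library (circles) and the week-3 library (squares), with bars for the 95% counting interval of each value. Lyl1 is at the top and Tal1 at the bottom in both libraries, and the widest gap between the libraries is that of Erg, from 10.3 to 4.05.

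Tal1 (ENSMUSG00000028717, chromosome 4 of GRCm38, 115056426 to 115071755, plus strand) had an FPKM of 2.04 from 131 reads before withdrawal and of 2.80 from 110 reads afterwards. Its log2 change was 0.46, with an interval from 0.08 to 0.83, so the week-3 level was higher but the size of the difference is poorly known. Scaling by TMM put Tal1 at 0.35 with an interval from -0.03 to 0.72 that no longer left out 0. Lyl1, its close relative (ENSMUSG00000034041, chromosome 8, 84701457 to 84704715, plus strand), stood at an FPKM of 114.9 (week-0, 1315 reads) and 166.0 (week-3, 1161 reads). The log2 change of Lyl1 was 0.53 (interval 0.41 to 0.64), and 72.9% of the genes tested had a lower one. Lyl1 was therefore the most abundant of the 10 by deposited FPKM in both libraries and also among the 3 that were higher at week-3. The gene overlaps Nfix, which lies on the minus strand and had 315 reads in the earlier library and 128 in the later one. The log2 change of Nfix was -0.59, opposite in direction to that of Lyl1. Counting is not stated to use strand, so reads of overlapping genes on opposite strands cannot be told apart.

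Among the adaptors and cofactors, Lmo2 (ENSMUSG00000032698, chromosome 2, 103957986 to 103981878, plus strand) led the 10 genes in reads before withdrawal, with 1658 (FPKM 38.8), and had 807 afterwards (FPKM 30.9). Its log2 change was small, -0.33 (interval -0.45 to -0.21). Ldb1, which holds the complex together (ENSMUSG00000025223, chromosome 19, 46032593 to 46045214, minus strand), was read 534 times in the week-0 library (FPKM 10.2) and 227 times in the week-3 library (FPKM 7.12), a log2 change of -0.52 (interval -0.76 to -0.30). The start of Ldb1 overlaps that of Pprc1, a coactivator gene on the plus strand, with 627 and 211 reads and a log2 change of -0.86. Cbfa2t3, the corepressor gene (ENSMUSG00000006362, chromosome 8, 122628739 to 122699109, minus strand), moved the other way. It had an FPKM of 11.4 from 586 reads before withdrawal and of 17.0 from 537 reads afterwards. Its log2 change of 0.58 (interval 0.41 to 0.76) was the highest of the 10, and 75.3% of the genes tested lay below it. It lay just under 1.5-fold, a limit that 24.6% of all genes tested passed in the upward direction and none of the 10 did.

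Gata2 is needed for the upkeep of stem cells and is also active in mast cells and basophils. Gata2 (ENSMUSG00000015053, chromosome 6, 88193891 to 88207032, plus strand) stood at an FPKM of 16.6 (week-0, 896 reads) and 11.4 (week-3, 378 reads), a log2 change of -0.54 (interval -0.71 to -0.36). Runx1, a master regulator of blood stem cell formation (ENSMUSG00000022952, chromosome 16, 92601466 to 92826149, minus strand), was read 1240 times in the week-0 library (FPKM 10.7) and 524 times in the week-3 library (FPKM 7.40), a log2 change of -0.53 (interval -0.68 to -0.38). Gata2, Runx1 and Ldb1 thus had almost the same change, and about 28% of the genes tested lay below each of them (28.1%, 28.1% and 28.3%). Cbfb, the partner of Runx1 (ENSMUSG00000031885, chromosome 8, 105170674 to 105217989, plus strand), had an FPKM of 6.88 from 285 reads before withdrawal and of 7.31 from 185 reads afterwards. Its log2 change of 0.09 had an interval from -0.19 to 0.36 and turned to -0.03 with TMM, so no difference of Cbfb was detectable at this depth.

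Erg and Fli1 are ETS factors of the same subfamily, and Erg is required for stem cells to renew themselves. Erg (ENSMUSG00000040732, chromosome 16, 95359169 to 95586593, minus strand) had 601 reads in the week-0 library (FPKM 10.3) but only 144 in the week-3 library (FPKM 4.05). The week-3 level was 2.55-fold lower (interval 2.12-fold to 3.08-fold), a log2 change of -1.35, and 13.0% of the genes tested, or 7.04% of those with at least 100 reads, had a lower one. The whole interval of Erg lay beyond 2-fold, and it lay below the intervals of the other 9 genes. Fli1 (ENSMUSG00000016087, chromosome 9, 32422204 to 32542861, minus strand) stood at an FPKM of 59.0 (week-0, 1311 reads) and 56.9 (week-3, 772 reads). Its log2 change was -0.05 (interval -0.18 to 0.08). With TMM the value was -0.17 and its interval, from -0.30 to -0.04, left out 0, so whether Fli1 was lower depends on the scaling, but a difference as large as that of Erg lay outside its interval under either scaling.

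**Figure D2:**
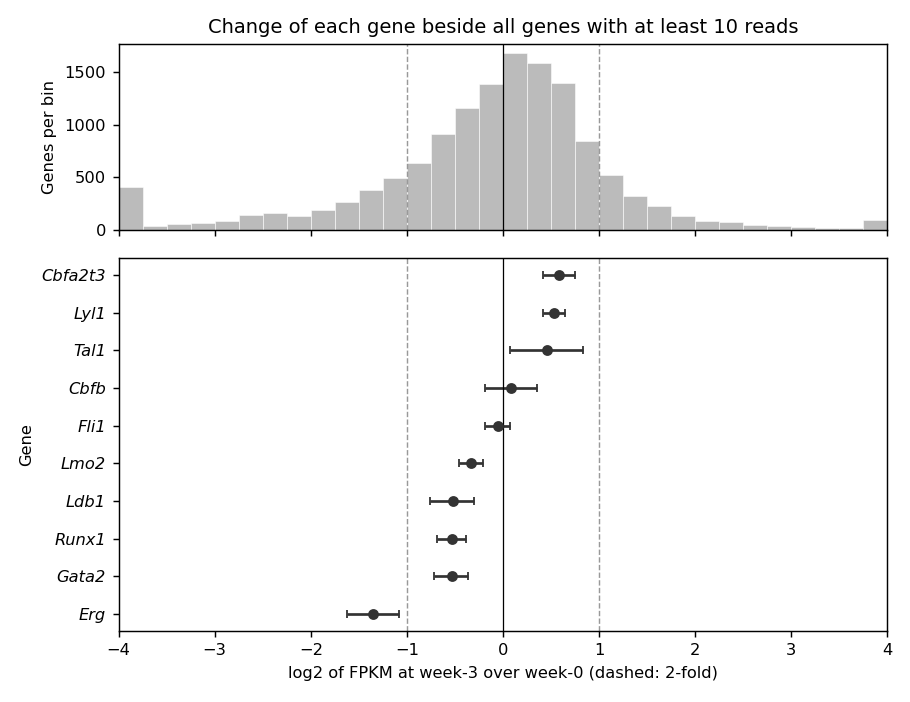
Below, the log2 change of each of the 10 genes (week-3 over week-0) with its 95% counting interval, and above on the same axis, the number of all 13689 genes with at least 10 reads per bin of 0.25, where the end bins also hold the genes beyond the axis. Only Erg lies beyond the dashed 2-fold line, and the other 9 genes lie within the bulk of the distribution, between -0.54 and 0.58.

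Within each library Lyl1 had the highest deposited FPKM, followed by Fli1 and Lmo2, and these 3 did not overlap each other in their intervals. At week-0, Gata2 was in place 4, and Cbfa2t3, Runx1, Erg and Ldb1 followed between 11.4 and 10.2 with overlapping intervals between neighbours. Cbfb and Tal1 were the lowest. At week-3, Cbfa2t3 had moved above Gata2, Runx1, Cbfb and Ldb1 lay together between 7.40 and 7.12, and Erg had dropped to place 9, above Tal1 alone. By this scale 96.7% of the genes tested had a lower level than Lyl1 at week-0, but only 37.0% had a lower level than Tal1.

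These places depend on the gene length behind the FPKM. For 6 of the 10 genes, and for 68.3% of 9266 genes with at least 50 reads at week-0, the length implied by the reads and the FPKM was within 1% of the sum of all distinct exons in GENCODE M21, in which overlapping exons of different transcripts are counted more than once. Only 8.55% of these genes were within 1% of the length without overlaps. Lmo2, with 8 transcripts, was assigned 6727 bases where its exons cover 2166, Erg 9156 where they cover 3466, and Tal1 10113 where they cover 4379. Lyl1 has 1 transcript and 1800 bases by both. With lengths of non-overlapping exons, an alternative chosen after seeing the data, Lmo2 stood at 120.4 FPKM at week-0 and was not told apart from Lyl1 at 114.9. Erg stood at 27.3 and Gata2 at 26.1, in places 4 and 5 with overlapping intervals, and Tal1 at 4.71 was again the lowest. At week-3 Lmo2 came second at 95.9, below Lyl1, and Erg was at 10.7, in place 9 beside Runx1 at 11.2. Changes between the libraries do not depend on the length.

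**Figure D3:**
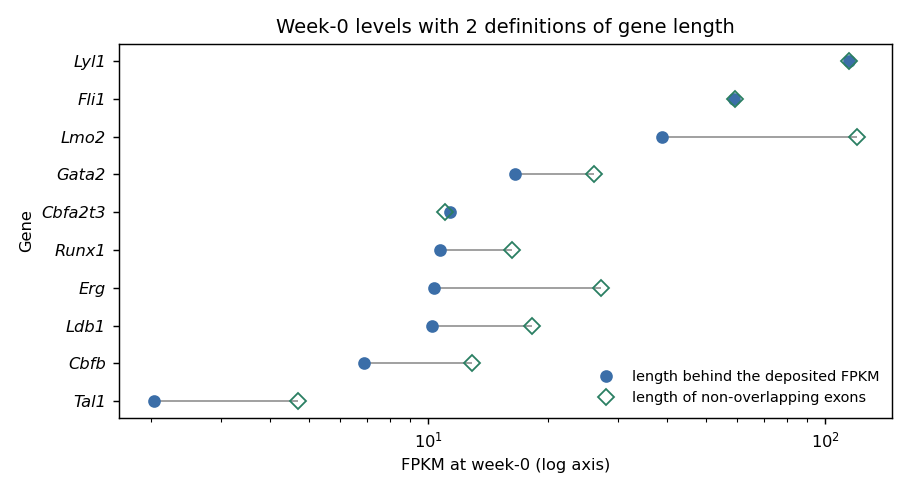
FPKM of the 10 genes at week-0 (log axis) with the length behind the deposited values (filled circles) and with the length of non-overlapping exons (open diamonds), joined by lines. Lmo2 moves most, from 38.8 to 120.4, Erg from 10.3 to 27.3 and Tal1 from 2.04 to 4.71, while Lyl1 and Fli1 stay in place.

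The ratio of 2 genes within a library does not depend on how the libraries are scaled, and 8 pairs were compared. Of these 8 ratios, that of the related ETS genes Erg and Fli1 had the largest change. Most of it was the fall of Erg (-1.35), since Fli1 itself was at -0.05. Erg had 0.175 times the FPKM of Fli1 at week-0 and 0.0712 times at week-3. That ratio was 2.46-fold lower at week-3, a log2 change of -1.30 (interval -1.60 to -1.0003). The ratio of the related genes Tal1 and Lyl1 went from 0.0177 to 0.0169, and its log2 change of -0.07 had an interval from -0.47 to 0.32. Gata2 to Tal1 went from 8.13 to 4.09 (log2 change -0.99, interval -1.41 to -0.57). Gata2 to Runx1 was 1.55 in both libraries, with an interval of the log2 change from -0.23 to 0.23, so these genes kept their proportion within counting error. Runx1 to its partner Cbfb went from 1.56 to 1.01 (log2 change -0.62, interval -0.93 to -0.30). The corepressor gene Cbfa2t3 stood at 1.11 times Ldb1 at week-0 and at 2.39 times at week-3, a log2 change of 1.11 (interval 0.82 to 1.40). In size, the interval of Cbfa2t3 to Ldb1 overlaps that of Erg to Fli1, so these changes were not told apart. Lmo2 to Ldb1 (log2 change 0.20, interval -0.06 to 0.46) and Gata1 to Gata2 (0.31, interval -0.26 to 0.86) did not leave out 0.

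**Figure D4:**
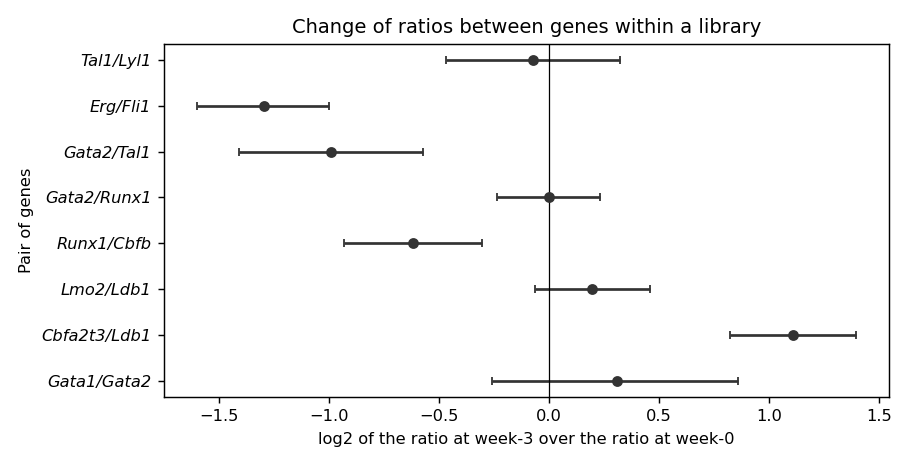
Log2 change of the ratio between 2 genes within a library, week-3 over week-0, for 8 pairs, with exact 95% counting intervals as bars. Erg/Fli1 (-1.30) and Cbfa2t3/Ldb1 (1.11) lie farthest from 0, and the intervals of Tal1/Lyl1, Gata2/Runx1, Lmo2/Ldb1 and Gata1/Gata2 span 0.

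The Tal1 locus was also examined because an element of this gene drives tTA. The deposited counts are per endogenous gene and hold no entry for tTA or BA. Of the 6 other genes within 100 kb of Tal1, 3 had more than 1 read in either library. Stil, a centriole gene 13230 bases upstream, was read 293 times in the week-0 library (FPKM 6.88) and 74 times in the week-3 library (FPKM 2.84), a log2 change of -1.28 (interval -1.66 to -0.90). Pdzk1ip1, the next gene downstream at 16953 bases, stood at FPKM 10.9 (279 reads) and then 4.86 (76 reads), a log2 change of -1.17 (interval -1.55 to -0.80). Both neighbours fell by more than 2-fold, though their intervals also allow a smaller fall. Tal1 itself was slightly higher, but with TMM or median-of-ratios scaling its interval held 0. The ratio of Tal1 to Stil was 3.32-fold higher at week-3 (log2 interval 1.19 to 2.28) and that of Tal1 to Pdzk1ip1 3.08-fold higher (1.08 to 2.17), comparisons chosen after the values were seen. Cmpk1, a nucleotide kinase gene farther upstream, had a log2 change of 0.28 (interval 0.09 to 0.46), and the ratio of Tal1 to Cmpk1 was 1.13-fold higher with a log2 interval from -0.25 to 0.60 that spans 0.

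Partners outside the 10 genes were read from lists of the wider pathway. None of the E protein genes, whose products pair with Scl and Lyl1, passed 2-fold. Tcf3 had an FPKM of 10.2 and then 10.3, Tcf4 of 2.84 and then 2.10, and Tcf12 of 0.792 and then 0.933. Of the Id genes, which encode proteins that sequester E proteins, Id1 and Id3 fell. Id1 had an FPKM of 141.2 from 1880 reads before withdrawal and of 34.5 from 281 reads afterwards (log2 change -2.03, interval -2.22 to -1.85). Id3 had 1202 and 60 reads (log2 change -3.61), while Id2 was at 0.01. In this list of 7, 0 of the 6 genes tested were 2-fold higher and 2 were 2-fold lower. Of all genes tested, 11.9% were 2-fold higher and 17.9% lower.

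Of the 7 LIM and Ldb1 assembly genes, 2 of 5 tested rose by 2-fold and 0 fell, beside 11.9% and 17.9% of all genes tested. Lmo1, a relative of Lmo2, had 35 and then 96 reads, with FPKM of 5.14 and 23.1 (log2 change 2.17, interval 1.59 to 2.77), in contrast to Lmo2 itself. Lmo4 had a log2 change of 1.10, with 203 and 267 reads. TMM put it at 0.99, below 2-fold, and median-of-ratios scaling at 1.02, still past 2-fold. Ssbp2, Ssbp3 and Ssbp4, whose products bind Ldb1, had log2 changes of 0.02, -0.36 and -0.78. Among GATA and FOG genes, Gata1 was at -0.23 with an interval from -0.76 to 0.29. Gata3 was at -0.90, past 2-fold with TMM (-1.01) but not with median-of-ratios scaling (-0.99). Zfpm1 (Fog1), the cofactor of Gata1 and Gata2, fell (log2 change -1.69, with 459 and 87 reads). Of the Runx and Eto relatives, Runx2 fell most, with 1393 and 236 reads and FPKM of 12.9 and 3.57 (log2 change -1.85, interval -2.06 to -1.65). Runx3 was at -0.44, close to Runx1, and Cbfa2t2, the relative of Cbfa2t3, at 0.29.

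The other ETS genes form a list of 24. Of 17 tested, 7 were 2-fold lower and 0 were 2-fold higher, beside 17.9% and 11.9% of all genes tested. The median log2 change of the list was -0.88, also with genes that had no reads at week-3 placed at their bound. Erf, an ETS repressor, fell from 305 to 16 reads (log2 change -3.54), Etv3 from 703 to 81 (-2.41), Elk4 from 1203 to 222 (-1.73), Elk1 from 75 to 15 (-1.61) and Ets2 from 152 to 35 (-1.41). Ehf (14 reads) and Fev (10 reads) were left with 0 reads in the later library, which makes them at least 2.85-fold and 2.04-fold lower when the floor of 3 reads per library stands for week-3. Their counting intervals reached up to log2 changes of -1.02 (Ehf) and -0.45 (Fev), so the reads of Fev also allow a fall below 2-fold. Elf1, with 1821 and 611 reads, was at -0.87 and Etv6, with 1027 and 343 reads, at -0.87. Spi1 (Pu.1), the ETS gene with the most reads, had 2766 and 1740 reads and a log2 change of 0.04 (interval -0.05 to 0.13). Erg was thus not alone among ETS genes in being 2-fold lower at week-3, and Fli1 and Spi1, both near 0, were among those that did not pass 2-fold. Elf2, at -0.98, came to pass 2-fold with TMM (-1.09).

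Corepressor genes that work with Scl, Gfi1b or Cbfa2t3 had a median log2 change of 0.09, with 1 of 12 higher by 2-fold and 1 lower. Gfi1, a transcriptional repressor gene, rose from 37 to 104 reads (log2 change 2.20). Ncor1 was at -0.34, Sin3b at 0.26 and Gfi1b at 0.19. Of 15 genes with reported binding by the Scl complex or the heptad, 1 was 2-fold higher and 4 were 2-fold lower, with a median of -0.61. Myb, a progenitor transcription factor gene, rose from 676 to 875 reads (log2 change 1.08, but 0.97 with TMM and thus below 2-fold). Among the genes that fell were Zfpm1, the erythroid factor gene Klf1 (-1.67, 52 and 10 reads) and the erythropoietin receptor gene Epor (-1.01, 46 and 14 reads). Cd34 was at -0.61, with 3804 and 1523 reads, and Kit at -0.55, with 1391 and 580 reads. Smad6 and Tek, at -0.98 and -0.96, came to pass 2-fold with TMM (-1.09 and -1.07). These counts are to be read beside the 17.9% and 11.9% of all genes tested that were 2-fold lower and higher.

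**Figure D5:**
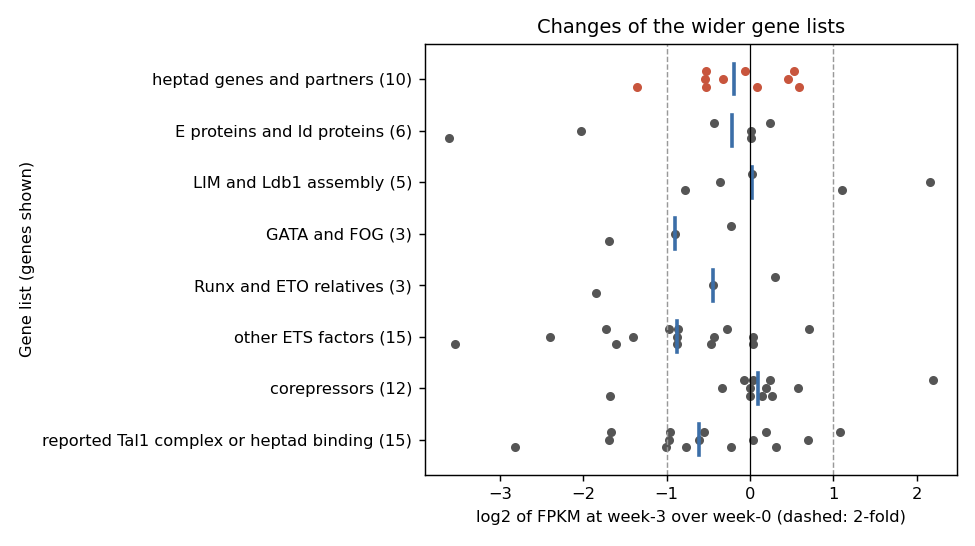
Log2 change of the 10 genes (top) and of the genes of 7 wider lists with at least 10 reads, week-3 over week-0, where each point is a gene, vertical bars are medians and dashed lines are 2-fold. The 10 genes spread less than the E protein and Id list or the other ETS factors, whose lowest points are Id3 (-3.61) and Erf (-3.54), and 2 ETS genes without reads at week-3 (Ehf and Fev) are not drawn.

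Markers of the cells that an LSK gate could hold differed between the libraries. Counts of markers past 2-fold are to be read beside the share of all genes tested, 17.9% lower and 11.9% higher. The 8 LSK markers were detected in both, with Kit at an FPKM of 16.9 and 11.5 and Ly6a (Sca1) at 19.8 and 14.8. Their sum went from 1938 to 869.6 CPM, of which Flt3 alone held 971.8 and 240.3 CPM. Flt3, Procr, Mecom and Mllt3 (4 of the 8) were 2-fold lower at week-3, and Slamf1 was 2-fold higher on 10 and 15 reads. All 9 mast cell and basophil markers were 2-fold higher, from 183.8 CPM in sum to 4094 CPM, and 2 of them (Tpsb2 and Mcpt4) had 0 reads at week-0. Neutrophil markers went from 3492 to 16414 CPM in sum, with 9 of 10 higher by 2-fold, all but Ly6g (5 and 5 reads). Most of both sums came from Elane (858.1 and 4732 CPM), Mpo (1486 and 4756), Prtn3 (558.8 and 3217) and Ctsg (381.2 and 2815). Which cells these reads came from was not tested. All 11 erythroid markers were 2-fold lower, from 2200 to 366.1 CPM. The sum of the 9 megakaryocyte markers went from 384.2 to 253.7 CPM, with 2 of the 9 lower by 2-fold. With TMM or median-of-ratios scaling 4 were 2-fold lower, which adds Gp1ba and Vwf. The 8 B and plasma cell markers summed to 913.3 and 84.4 CPM, with 4 of 6 tested 2-fold lower. Jchain alone made up 805.5 of the 913.3 CPM at week-0. Cd79b (log2 change 0.17, interval -0.09 to 0.42) and Vpreb1 (-0.12) did not pass 2-fold. Of 6 T and NK markers, which summed to 449.3 and 676.9 CPM, only Nkg7 had at least 10 reads, and Cd3e had 5 and 0. Macrophage and dendritic cell markers summed to 53.3 and 89.8 CPM, with 1 of 4 tested 2-fold lower (Siglech, 21 and 3 reads). The others tested were higher but short of 2-fold: Csf1r (log2 change 0.92, interval 0.54 to 1.30), Cd68 (0.78, 0.48 to 1.09) and Itgam (0.71, -0.07 to 1.49). Endothelial cells also use many of the 10 genes, and their 6 markers summed to 71.3 and 60.2 CPM, with 1 of 4 tested 2-fold lower (2 with TMM or median-of-ratios scaling, which add Tek). Their defining markers Cdh5 and Kdr had 3 and 4 reads in the earlier library and 0 in the later one. Gata2, Tal1, Lmo2, Runx1, Erg and Fli1 are used in several of these lineages, and the part of such cells in the changes of the 10 genes was not tested.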

How the data were processed

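Total RNA of sorted BM LSKs was reverse transcribed (SMARTer Ultra Low Input) and sequenced as paired ends of 100 bases. Per the labels and the methods of the study, reads were mapped to GRCm38 with TopHat2 2.0.9 allowing 2 mismatches. The authors deposited counts, as whole reads per gene without normalization, and FPKM, the reads scaled by a gene length and by the library total. The counting tool and the annotation release are not given in the sources used here. A study-wide edgeR analysis is named there without its dispersion.

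Here, ratios of FPKM were computed without a pseudocount, with exact Clopper-Pearson intervals at 95% for the part of each gene's reads from week-3. Exact Poisson intervals were used for levels and exact conditional odds ratios for pairs. No p-values were computed, since each time point had 1 library. A gene was called when its ratio was at least 2 or at most 0.5, among 13689 genes with at least 10 reads over both libraries. The limit was 2 because the study used it. Depth was 6356164 and 3886695 reads, and 3 reads, the floor, were 0.472 and 0.772 CPM.

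The tables were joined by Ensembl identifier. Coordinates are those of the tables, which were the same in GENCODE M21 for 8 of the 10 genes. Strand, transcripts and exon lengths come from GENCODE M21. One symbol with several rows (Itgam) was resolved by identifier. The 10 genes, the lists and the pairs were chosen with earlier results of these data known. Genes named from lists were those past 2-fold and up to 3 with the most reads, and a few further list members were added after their values were seen. Results for 2 further genes under this rule are not reported here. Alternatives were TMM (edgeR 4.0.16), median-of-ratios scaling (DESeq2 1.42.0), totals without the top 10 genes in either library, pseudocounts of 0.1 and 1, CPM, a limit of 1.5-fold and other read limits. On simulated Poisson counts, without amplification or spread between mice, the intervals held the true change for 95.9% of 13428 genes. This checks the calculation only, not how well the intervals describe these reads. The software was R 4.3.3, matplotlib 3.10.9, scipy 1.17.1, pandas 2.3.3, numpy 2.4.6 and Python 3.11.15.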

Additional observations from a re-analysis of the deposited data

How the results depend on the processing

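No paired analysis was possible because each time point had 1 library. Each log2 change of the 10 genes was recomputed under 6 alternatives (3 scalings, 2 pseudocounts and CPM), and all 60 values stayed within the counting interval of the main value. TMM moved every log2 change by -0.11, median-of-ratios scaling by -0.09 and totals without the top genes by 0.02. The sign was the same under all 6 for 9 genes, and that of Cbfb turned under TMM (-0.03) and median-of-ratios scaling (-0.0031). Under these 2 scalings the interval of Tal1 came to hold 0 and that of Fli1 no longer did, so that 2 intervals lay above and 6 below 0. Erg was the 1 gene past 2-fold under every alternative, and also with the added demand that the interval leave out no change. At a limit of 1.5-fold it was again the 1 gene with the deposited scaling, but 4 genes were lower when that limit was joined with TMM or median-of-ratios scaling, a combination chosen after seeing the data. The share of all genes past 2-fold in either direction was 29.9%. It was 18.9% among genes with at least 100 reads, and 51.3% of genes passed 1.5-fold. With non-overlapping exon lengths, 14 of the 20 levels moved outside their counting intervals. All 8 ratios of pairs stayed within their intervals with a pseudocount of 1. Depth limits Tal1 and Cbfb most, and nothing here measures the spread between mice.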

Other observations

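Several unnamed transcripts lie inside the genes described above, and their values had no place in the comparisons. Fli1 overlaps 5 other annotated genes in the deposited tables. Gm27201, annotated as antisense to Fli1, stood at an FPKM of 13.6 (week-0, 36 reads) and 28.5 (week-3, 46 reads), a log2 change of 1.06 (interval 0.40 to 1.73), while Fli1 itself was at -0.05. Gm37474, on the same strand as Fli1, had 52 and 59 reads (log2 change 0.89, interval 0.33 to 1.46). The other 3 had at most 11 reads in either library. Gm26626, antisense to Runx1, had 22 and 8 reads, and its interval from -2.13 to 0.47 did not leave out 0. Gm10612, antisense to the start of Cbfa2t3, had 0 reads and then 4. Counting is not stated to use strand, so whether these reads belong to the host genes was not tested.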
